A study of Mus musculus with 20 samples.

Results

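The genes described here are the E2 ubiquitin-conjugating enzymes of the mouse testis, taken as every gene whose symbol starts with Ube2. The array annotation held 33 such genes, read by 81 probe sets that name a single gene, among 18193 genes in all. Each was read from 1 probe set, the one whose log2 signal averaged highest over the arrays, and the other probe sets served as a check. Of the 33 genes, 31 passed a filter on dim genes and were tested, among 15762 genes tested in all. Ube2l6, the E2 of the ubiquitin-like protein ISG15, and Ube2ql1 read at most 17.7 on every array and did not pass. The probe sets of Ube2l3 are shared with other genes and were not used, and Ube2m, Ube2dnl1 and Ube2dnl2 were not analysed here. The symbol rule also takes in 2 genes that are not E2 enzymes as annotated. Ube2d-ps is annotated as a noncoding RNA, and Ube2cbp, also called Ube3d, is a protein that binds E2 enzymes.

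Total RNA from testes of AKR/N and C57BL/6 mice, both inbred strains, was hybridised to Affymetrix oligonucleotide arrays. Heated testes were collected 8, 10, 12 and 24 h after 15 min at 43 °C, and each strain had unheated controls, with all mice 8 weeks old. Each of the 10 groups had 2 arrays, which makes 20 arrays. Whether both arrays of a group stem from different animals is not in the labels, so the p-values speak of the scatter among these samples alone, and that scatter may be technical. Control samples carry no time, so heat and time of sampling cannot be told apart.

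Ubiquitin is attached to proteins by a cascade in which an E1 enzyme activates it, an E2 enzyme carries it on a cysteine, and an E3 ligase brings the E2 to the target. The E2 helps to decide which kind of ubiquitin chain is built, and so whether a protein is degraded by the proteasome, moved, or used in DNA repair and signalling. Male germ cells use this system heavily, since histones, other nuclear proteins and much of the cytoplasm are removed as sperm form, and mice without Ube2b, a homologue of yeast RAD6, have infertile males.

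The median signal was 24.9 to 34.9, the 3'/5' actin ratio was 1.87 to 3.57 with the highest value on C57BL/6 12 h replicate 2, and replicates correlated across probe sets with r between 0.97 and 0.988. Hspa1b, the inducible heat shock protein HSP70, marked the heating at 8 h: its log2 change was 4.77 (SE 0.66, adjusted p = 0.0266) in AKR/N and 6.40 (SE 0.66, adjusted p = 0.000911) in C57BL/6. The AKR/N value at 8 h lost its call without any of 5 single arrays. Its change ranged from 3.44, without AKR/N control replicate 1, to 6.10, so it depended on which AKR/N control was used. At 24 h Hspa1b changed by -0.86 (SE 0.66, adjusted p = 0.372) in AKR/N, which was not called. In C57BL/6 it changed by 2.74 (SE 0.66, adjusted p = 0.00493) at 24 h, a call lost without C57BL/6 24 h replicate 1. All 10 listed markers each of pachytene spermatocytes, round spermatids and elongating spermatids passed the filter. So did all 10 of macrophages and leukocytes and all 7 of peritubular and endothelial cells. Since 15762 of 18193 genes passed, this does not test the tissue label.

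E2 genes both rose and fell after heat, and at 24 h Ube2s had the largest fall and Ube2d1 the largest rise of the family in both strains. Every change below is a difference of group means of log2(signal + 16), which understates changes of dim probe sets, and a gene was called at a limma adjusted p under 0.05 over the 15762 genes. Where signals of heated testes are given without a time, they are those of 24 h. No member was called at 8 h in either strain, where 0.0381% of all genes tested were called in AKR/N and 0.0888% in C57BL/6. An unadjusted p under 0.05 was reached by 3 members in AKR/N and 1 in C57BL/6. These counts lack the share of all genes at that threshold, so no response is read from them. At 10 h, 1 member fell in AKR/N, where 2.63% of all genes were called and 1.19% were called lower. In C57BL/6, 2 fell, where 11.2% of all genes were called and 5.19% lower. At 12 h, 3 members rose and 2 fell in AKR/N, where 7% of all genes were called, 3.8% higher and 3.2% lower. In C57BL/6, 3 rose and 5 fell, where 19.1% of all genes were called, 9.71% higher and 9.38% lower.

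At 24 h, 4 of the 31 members rose and 4 fell in AKR/N testes, which is 25.8% against 23.4% of all genes (12.3% higher and 11.1% lower). In C57BL/6 testes 10 rose and 9 fell, which is 61.3% against 38% of all genes (21.4% higher and 16.6% lower). Without C57BL/6 24 h replicate 2 the C57BL/6 calls numbered 11 of 31, or 35.5% against 28.8% of all genes, and without AKR/N 24 h replicate 2 the AKR/N calls numbered 5 of 30, or 16.7% against 6.8%. The members' median change was near that of all genes, at -0.04 against -0.01 in AKR/N and 0.09 against 0.08 in C57BL/6. Called members with a change of at least 2-fold were Ube2s, Ube2d1 and Ube2o in AKR/N. In C57BL/6 they were Ube2s, Ube2c, Ube2d2b, Ube2d1 and Ube2t. The arrays of heated and control testes did not overlap for any member called at 24 h. Groups of 2 arrays often separate by chance and calls favour separated groups, so this adds no support to the calls. Of the calls at 24 h, 5 of 8 in AKR/N and 10 of 19 in C57BL/6 held with each of the 20 arrays left out in turn. The C57BL/6 rises depended on scaling. When each array was centred on its median, which set the median C57BL/6 change of the genes tested at -0.05 in place of 0.08, the C57BL/6 calls were 3 rises and 9 falls, or 38.7% of members against 33.8% of all genes. The rises of Ube2a, Ube2e1, Ube2g2, Ube2h, Ube2j1, Ube2k and Ube2z then missed the threshold, with adjusted p between 0.0872 and 0.27. In AKR/N centring left 6 calls, or 19.4% against 18.8% of all genes, and ended the falls of Ube2j2 (adjusted p = 0.0916) and Ube2d2b (0.0537). Of the earlier calls it ended those of Ube2d2b (0.108) and Ube2g1 (0.0973) at 12 h in AKR/N, Ube2d1 (0.0514) at 12 h in C57BL/6 and Ube2t (0.0664) at 10 h in C57BL/6.

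**Figure D1:**
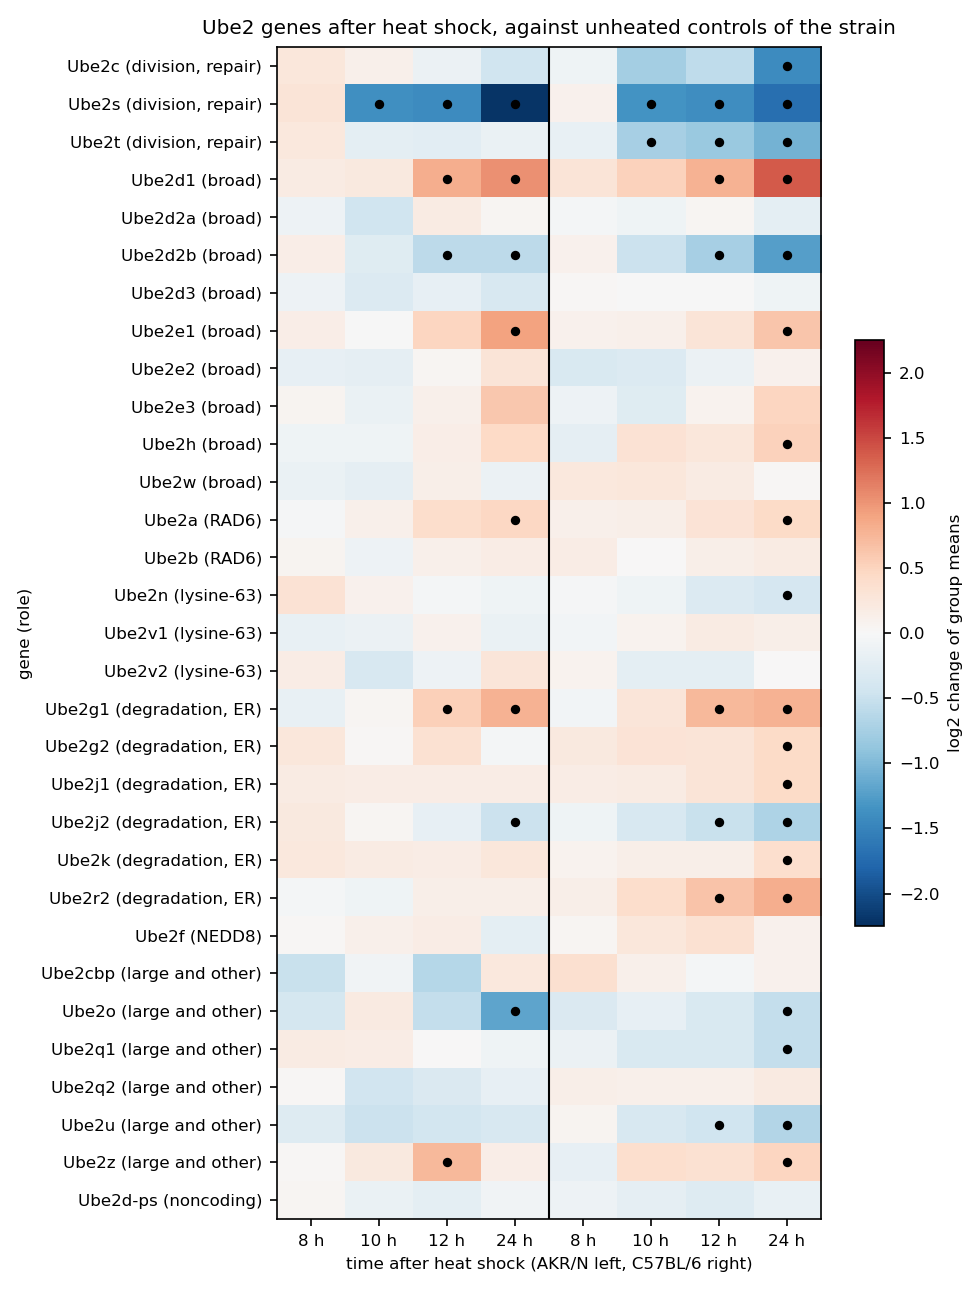
Log2 change of each of the 31 tested Ube2 genes (rows, grouped by role) at 8, 10, 12 and 24 h after heat shock against unheated controls of the same strain, with AKR/N in the left 4 columns and C57BL/6 in the right 4. Colour gives the change, red higher and blue lower in heated testes, and a dot marks an adjusted p under 0.05: no dot stands at 8 h, and 8 stand at 24 h in AKR/N against 19 in C57BL/6.

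Ube2s, Ube2c and Ube2t are the E2 genes of the list that serve cell division and DNA repair. UBE2C starts and UBE2S extends the ubiquitin chains that the anaphase-promoting complex builds on proteins destroyed in mitosis and meiosis, and UBE2T works with the Fanconi anaemia ligase on DNA crosslinks. All 3 fell at 24 h in C57BL/6, and Ube2s alone of them was called in AKR/N. Their promoters (RefSeq, GRCm38.p6, 250 bases before to 50 after the transcription start) are shown because these genes, with Ube2d2b below, hold the largest falls at 24 h in C57BL/6. Capitals mark the letters CCAAT, a box common in promoters of cell cycle genes, and TTTGAA, the cell cycle homology region, on either strand. The windows are chr7:4812291-4812590, minus strand for Ube2s, chr2:164769679-164769978, plus strand for Ube2c and chr1:134962315-134962614, plus strand for Ube2t.
Ube2s: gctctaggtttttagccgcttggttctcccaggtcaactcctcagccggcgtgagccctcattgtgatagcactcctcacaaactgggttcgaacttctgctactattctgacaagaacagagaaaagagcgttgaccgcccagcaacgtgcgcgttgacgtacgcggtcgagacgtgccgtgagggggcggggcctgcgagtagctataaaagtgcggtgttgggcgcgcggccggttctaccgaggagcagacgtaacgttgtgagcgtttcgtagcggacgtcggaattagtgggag
Ube2c: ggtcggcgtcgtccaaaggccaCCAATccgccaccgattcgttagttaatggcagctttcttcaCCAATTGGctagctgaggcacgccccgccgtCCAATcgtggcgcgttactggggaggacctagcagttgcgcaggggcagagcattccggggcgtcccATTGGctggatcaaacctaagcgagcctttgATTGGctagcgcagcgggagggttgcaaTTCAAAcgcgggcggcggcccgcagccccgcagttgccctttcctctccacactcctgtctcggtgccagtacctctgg
Ube2t: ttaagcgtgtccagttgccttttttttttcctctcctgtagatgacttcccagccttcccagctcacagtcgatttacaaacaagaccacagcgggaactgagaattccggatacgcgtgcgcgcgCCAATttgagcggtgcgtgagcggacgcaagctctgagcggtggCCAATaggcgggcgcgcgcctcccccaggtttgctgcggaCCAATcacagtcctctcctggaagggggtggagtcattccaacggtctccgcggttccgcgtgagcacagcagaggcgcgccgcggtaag

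The Ube2c window held 6 matches to CCAAT, 2 of them overlapping in CCAATTGG, and 1 to TTTGAA, the Ube2t window held 3 to CCAAT, and the Ube2s window held none of either. Promoters on chromosome 18, where Ube2d2a lies, were left out. Among the 32851 other promoters of the same length, 37.4% held CCAAT and 17.9% held TTTGAA. Of the 31 tested members, 25 had a promoter among these, in 34 windows, of which 7 held CCAAT and 4 held TTTGAA. GAANNTTC, the core of the heat shock element, which can overlap TTTGAA in its GAA, was in 0 of the 34 windows against 7.86% of all promoters. TGACGTCA, the cAMP response element, was in 2, those of Ube2b and Ube2h, against 1.79% of all. These matches describe letters in these windows and no binding was measured.

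Ube2s had the largest change of the family in both strains. Its signal was 2878 and 3212 in AKR/N controls, 3777 and 3652 at 8 h, 1034 and 1286 at 10 h, 1059 and 1205 at 12 h and 672 and 618 at 24 h. The C57BL/6 signal was 3422 and 3913 in C57BL/6 controls, 4078 and 3733 at 8 h, 1678 and 1220.0 at 10 h, 1468 and 1292 at 12 h and 1082 and 1166 at 24 h. In both strains all 4 arrays of controls and 8 h lay above all 6 later arrays, so the level dropped between 8 and 10 h. Its log2 change in AKR/N was -1.39 (SE 0.16, adjusted p = 0.00174) at 10 h, -1.42 (SE 0.16, adjusted p = 0.000594) at 12 h and -2.21 (SE 0.16, adjusted p = 2.06e-05) at 24 h. In C57BL/6 it was -1.35 (SE 0.16, adjusted p = 0.000906) at 10 h, -1.40 (SE 0.16, adjusted p = 0.000253) at 12 h and -1.69 (SE 0.16, adjusted p = 8.31e-06) at 24 h. All 6 calls held with each array left out in turn. The kept probe set has the suffix given to sets whose probes also match other transcripts. The other Ube2s probe set, with a median signal of 18.7 close to the filter of 17.5, changed by 0.10 in AKR/N and -0.28 in C57BL/6 at 24 h and was not called.

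At 24 h Ube2c gave 256 and 193 in heated AKR/N testes, against 242 and 394 in AKR/N controls. It gave 79.6 and 134 in heated C57BL/6 testes, against 318 and 288 in C57BL/6 controls. Both C57BL/6 arrays of 24 h lay below the controls, whereas in AKR/N the groups overlapped. The log2 change at 24 h was -0.45 (SE 0.28, adjusted p = 0.261) in AKR/N, not called, and -1.41 (SE 0.28, adjusted p = 0.00125) in C57BL/6, where the call held with each array left out. Ube2t had a signal of 718 and 842 in AKR/N controls, 860.2 and 989 at 8 h, 644 and 695 at 10 h, 593 and 736 at 12 h and 733 and 669 at 24 h. Its C57BL/6 signal was 952 and 967 in C57BL/6 controls, 808 and 909 at 8 h, 628 and 510.1 at 10 h, 651 and 435 at 12 h and 409.6 and 499.8 at 24 h. The C57BL/6 arrays from 10 h on were all below those of controls and 8 h. Ube2t changed by -0.15 (SE 0.19, adjusted p = 0.611) in AKR/N and by -1.06 (SE 0.19, adjusted p = 0.000612) in C57BL/6 at 24 h, and only the C57BL/6 fall was called. In C57BL/6 it had already fallen by 0.75 at 10 h and by 0.83 at 12 h on the log2 scale. Those earlier calls were lost without 1 array: adjusted p was 0.155 at 10 h without C57BL/6 10 h replicate 2, 0.104 without control replicate 1 and 0.112 without control replicate 2, and at 12 h it was 0.0859 without C57BL/6 12 h replicate 2 and 0.056 without control replicate 2.

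**Figure D2:**
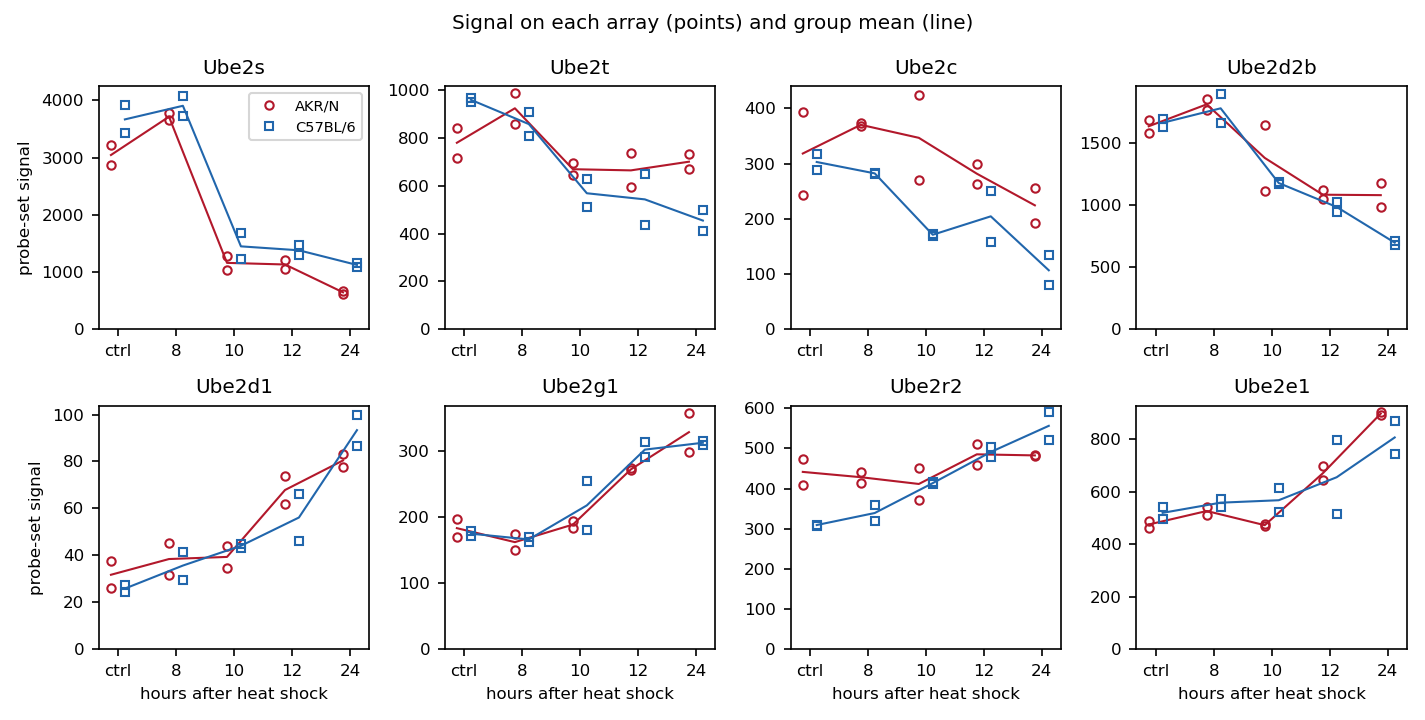
Probe-set signal (linear scale from 0) of 8 Ube2 genes on every array, by hours after heat shock, with unheated controls (ctrl) at the left of each panel; circles are AKR/N, squares C57BL/6, and lines join group means. Ube2s drops between 8 and 10 h in both strains, Ube2t and Ube2c end lower in C57BL/6 than in AKR/N, and Ube2d1 reaches 77.8 to 83.1 in AKR/N and 86.8 to 99.9 in C57BL/6 at 24 h.

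These falls came in whole testis RNA, in which fewer cells of a type and less RNA per cell cannot be told apart. Of all genes tested, 12.3% were called higher and 11.1% lower at 24 h in AKR/N, and 21.4% higher and 16.6% lower in C57BL/6. Markers of pachytene spermatocytes fell beside the Ube2 genes, with 6 of 10 called lower and 1 higher in AKR/N and 7 of 10 called lower in C57BL/6 at 24 h. Their summed signal was 11367 to 12104 in heated AKR/N testes, against 15434 to 16394 in AKR/N controls. It was 8258 to 9013 in heated C57BL/6 testes, against 16340 to 17052 in C57BL/6 controls. Markers of Sertoli cells went the other way: 4 of 9 tested rose in AKR/N and 5 of 9 in C57BL/6, and their sum over 10 markers was 14622 to 15560 in heated AKR/N testes against 9635 to 10059 in controls, and 16630 to 16924 in heated C57BL/6 testes against 8993 to 9069 in controls. Spermatogonial markers, 9 of which were tested, had 3 rises in AKR/N and 2 in C57BL/6, the C57BL/6 count being near the share of all genes. The 10 macrophage and leukocyte markers had 3 rises in AKR/N and 4 in C57BL/6, and neither of these 2 lists had a fall. Of 10 round spermatid markers, 3 rose in AKR/N, and 4 rose and 1 fell in C57BL/6. Their sum was 28065 to 29024 in heated AKR/N testes against 25862 to 27891 in controls, and 35108 to 36665 in heated C57BL/6 testes against 29165 to 29202 in controls. Of 10 elongating spermatid markers, 1 rose in AKR/N and 4 in C57BL/6, with sums of 67669 to 68201 in heated AKR/N testes against 70392 to 71880 in controls, and 80764 to 82273 in heated C57BL/6 testes against 65448 to 70002 in controls. Of 5 Leydig cell markers tested, 2 fell in AKR/N, and 2 rose and 2 fell in C57BL/6. Their sum was 2326 to 2420 in heated AKR/N testes against 3918 to 4120 in controls, and 1945 to 2236 in heated C57BL/6 testes against 1791 to 2032 in controls. Of 7 peritubular and endothelial markers, 1 rose in each strain, close to the share of all genes in AKR/N and under it in C57BL/6. The actin ratio, a sign of RNA quality, was 2.14 and 2.17 on the 24 h arrays of AKR/N against 2.92 and 2.39 on its controls, and 2.84 and 2.58 on the 24 h arrays of C57BL/6 against 2.14 and 2.46 on its controls, so it was lower after heat in AKR/N and higher in C57BL/6. The part of these shifts in the Ube2 changes was not tested.

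The broadly acting E2 enzymes, the UBE2D and UBE2E families with Ube2h and Ube2w, work with many E3 ligases. Of 9 measured, 2 rose and 1 fell at 24 h in AKR/N, and 3 rose and 1 fell in C57BL/6, which is 33.3% against 23.4% of all genes in AKR/N and 44.4% against 38% in C57BL/6. The largest rise of the family, Ube2d1, and the fall of its relative Ube2d2b were called in both strains at 12 and 24 h, and their promoters are shown for that contrast. They lie at chr10:71285213-71285512, minus strand for Ube2d1, which held none of the motifs, and chr5:107829912-107830211, plus strand for Ube2d2b, which held 1 CCAAT and 1 TTTGAA, in capitals.
Ube2d1: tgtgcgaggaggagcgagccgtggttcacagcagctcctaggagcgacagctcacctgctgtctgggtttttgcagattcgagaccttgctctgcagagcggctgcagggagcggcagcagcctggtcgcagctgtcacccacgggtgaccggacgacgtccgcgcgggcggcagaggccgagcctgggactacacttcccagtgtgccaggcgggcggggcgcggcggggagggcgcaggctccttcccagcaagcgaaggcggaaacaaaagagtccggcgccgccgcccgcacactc
Ube2d2b: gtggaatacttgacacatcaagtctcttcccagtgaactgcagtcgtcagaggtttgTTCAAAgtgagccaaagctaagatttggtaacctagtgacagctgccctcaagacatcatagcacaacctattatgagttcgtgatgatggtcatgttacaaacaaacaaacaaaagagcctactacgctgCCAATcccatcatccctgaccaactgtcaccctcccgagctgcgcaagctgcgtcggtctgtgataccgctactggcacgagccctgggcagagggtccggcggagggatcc

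Ube2d1 had a signal of 37.5 and 25.9 in AKR/N controls, 31.5 and 45.3 at 8 h, 34.5 and 44.1 at 10 h, 73.6 and 62.1 at 12 h and 83.1 and 77.8 at 24 h. In C57BL/6 it had 27.2 and 24.4 in C57BL/6 controls, 29.7 and 41.6 at 8 h, 43.1 and 45 at 10 h, 66 and 46.2 at 12 h and 99.9 and 86.8 at 24 h. Both 24 h arrays of each strain were above every earlier array of that strain. The log2 change at 24 h was 1.03 (SE 0.18, adjusted p = 0.00206) in AKR/N and 1.39 (SE 0.18, adjusted p = 7.65e-05) in C57BL/6, and both calls held with each array left out. At 12 h it was 0.82 (SE 0.18, adjusted p = 0.0197) in AKR/N and 0.77 (SE 0.18, adjusted p = 0.0113) in C57BL/6. The 12 h calls were lost without AKR/N 12 h replicate 1 (adjusted p = 0.14) or AKR/N control replicate 2 (0.121), and without C57BL/6 12 h replicate 1 (0.0782) or C57BL/6 control replicate 2 (0.0771). Ube2d1 has a single probe set.

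Ube2d2b ran the other way, with 1173 and 984 in heated AKR/N testes, against 1580.4 and 1684 in AKR/N controls. It had 713 and 680.0 in heated C57BL/6 testes, against 1629.9 and 1691 in C57BL/6 controls. Neither strain's groups overlapped. Its log2 change at 24 h was -0.60 (SE 0.16, adjusted p = 0.0161) in AKR/N and -1.23 (SE 0.16, adjusted p = 6.1e-05) in C57BL/6. At 12 h it was -0.59 (SE 0.16, adjusted p = 0.0413) in AKR/N and -0.75 (SE 0.16, adjusted p = 0.00609) in C57BL/6. The C57BL/6 calls held with each array left out. The AKR/N call at 24 h was lost without AKR/N 24 h replicate 2 (adjusted p = 0.153), control replicate 1 (0.0515) or control replicate 2 (0.0835), and that at 12 h without any of 14 single arrays, with adjusted p between 0.051 and 0.197.

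Ube2e1 rose in both strains at 24 h. It had 905 and 891 in heated AKR/N testes, against 461 and 489 in AKR/N controls. It had 744 and 869.6 in heated C57BL/6 testes, against 543 and 496 in C57BL/6 controls. The log2 change was 0.90 (SE 0.17, adjusted p = 0.00258) in AKR/N, which held with each array left out, and 0.62 (SE 0.17, adjusted p = 0.0101) in C57BL/6, which was lost without C57BL/6 24 h replicate 2 (adjusted p = 0.0861) or control replicate 2 (0.0727). Median centring also ended the C57BL/6 call (0.0872). The other Ube2e1 probe set changed by 0.33 in AKR/N and 0.45 in C57BL/6. Ube2e3, a relative of Ube2e1, was not called, with 0.60 (SE 0.21, adjusted p = 0.0508) in AKR/N and 0.49 (SE 0.21, adjusted p = 0.0819) in C57BL/6. Ube2e2 changed by 0.28 in AKR/N and 0.10 in C57BL/6, and Ube2w, which modifies the N terminus of its targets, by -0.13 and 0.02 in the same order of strains, with none called.

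Ube2h, an E2 partner of the CTLH ligase complex, had 273 and 329.8 in heated AKR/N testes, against 232 and 199 in AKR/N controls, a change of 0.45 (SE 0.17, adjusted p = 0.0715) that was not called. It had 319 and 311 in heated C57BL/6 testes, against 227 and 204 in C57BL/6 controls, a change of 0.52 (SE 0.17, adjusted p = 0.0287). That C57BL/6 call was lost without either replicate of either group, with adjusted p between 0.0605 and 0.151. Its other probe sets changed in C57BL/6 by -0.04, 0.45 and 1.73.

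Ube2d3, of the same family, shows how the result for a gene can turn on the probe set. The kept probe set, 1455479_a_at, had 5375 and 5505 in heated AKR/N testes, against 7128 and 6837 in AKR/N controls. It had 5846 and 5134 in heated C57BL/6 testes, against 6000.2 and 5671 in C57BL/6 controls. Its log2 change was -0.36 (SE 0.13, adjusted p = 0.0636) in AKR/N and -0.09 (SE 0.13, adjusted p = 0.638) in C57BL/6, neither of them called. When every single-gene probe set was fitted as its own row (28000 probe sets, of which 18.2% in AKR/N and 31% in C57BL/6 were called at 24 h), 3 of the 7 Ube2d3 probe sets rose in both strains. Of these, 1423114_at had 72.8 and 93.1 in heated AKR/N testes, against 31.1 and 47.5 in AKR/N controls, and 93.1 and 96.1 in heated C57BL/6 testes, against 35.5 and 32.8 in C57BL/6 controls. Over the 3, the change was 0.83 to 0.86 in AKR/N and 1.12 to 1.22 in C57BL/6. The probe set 1455480_s_at fell instead, by 0.36 in AKR/N (adjusted p = 0.0478) and by 0.37 in C57BL/6 (adjusted p = 0.0285) on the log2 scale. Both 1455480_s_at and 1450859_s_at, which is among the 3 that rose, have the suffix of sets with shared probes. The C57BL/6 rises of the 3 held with each array left out. In AKR/N all 3 were lost without AKR/N 24 h replicate 2 (adjusted p = 0.0583 to 0.111), 1450858_a_at also without AKR/N control replicate 1 (0.0536) and 1450859_s_at without control replicate 2 (0.0545). The AKR/N fall of 1455480_s_at was lost without most single arrays, with adjusted p up to 0.198, and its C57BL/6 fall without either replicate of either C57BL/6 group (0.0532 to 0.181).

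Ube2d2a showed the same split. Its kept probe set changed by 0.05 (SE 0.22, adjusted p = 0.894) in AKR/N and -0.23 (SE 0.22, adjusted p = 0.469) in C57BL/6. The probe set 1448356_at had 419.6 and 461 in heated AKR/N testes, against 273 and 242 in AKR/N controls. It had 553 and 492 in heated C57BL/6 testes, against 235 and 251 in C57BL/6 controls. It rose by 0.74 (SE 0.15, adjusted p = 0.00457) in AKR/N and 1.05 (SE 0.15, adjusted p = 0.000139) in C57BL/6. The probe set 1416475_at fell by 0.40 (adjusted p = 0.0437) in AKR/N and by 0.46 (adjusted p = 0.014) in C57BL/6 on the log2 scale. The AKR/N rise was lost without AKR/N 24 h replicate 2 (adjusted p = 0.059), the AKR/N fall without most single arrays (up to 0.239), and the C57BL/6 fall without C57BL/6 24 h replicate 2 (0.0845) or control replicate 1 (0.0908). Over the 75 Ube2 probe sets that passed the filter, 9 rose and 6 fell in AKR/N and 19 rose and 10 fell in C57BL/6. In the fit by probe set, 2 genes in each strain, Ube2d3 and Ube2d2a, had probe sets called in both directions. Ube2n, described below, is not among them, since the C57BL/6 fall of its kept probe set was called only in the fit by gene. This fit by probe set was chosen after seeing the data.

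**Figure D3:**
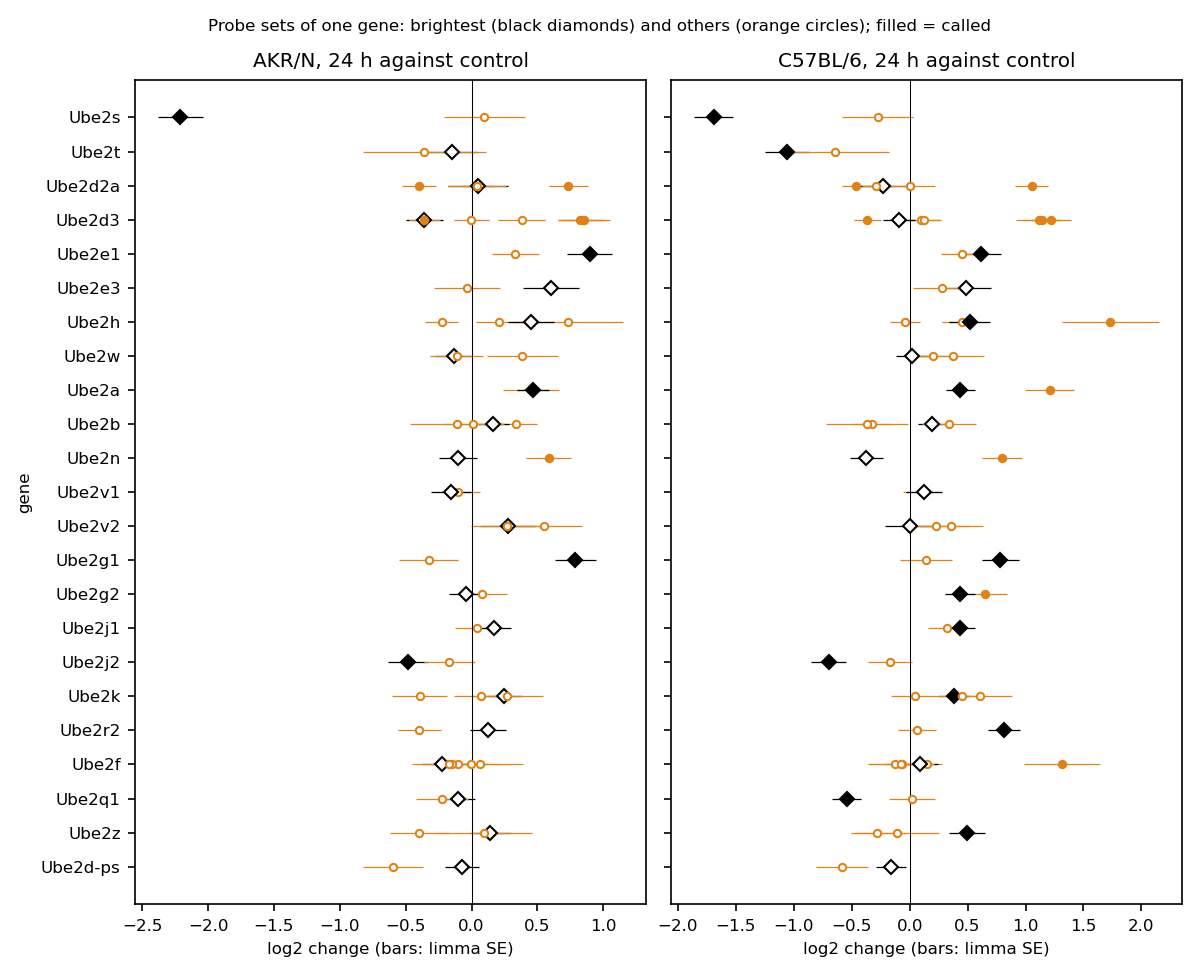
Log2 change at 24 h against control of every probe set of the Ube2 genes that have more than 1 passing the filter, with AKR/N left and C57BL/6 right; diamonds are the kept probe sets, circles the others, filled symbols have an adjusted p under 0.05 in the fit by probe set, and bars are limma standard errors. Filled circles of Ube2d3 and Ube2d2a stand on both sides of 0, and the other probe set of Ube2s stands near 0 while the kept one is at -2.21 in AKR/N and -1.69 in C57BL/6.

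The E2 genes that build degradation chains or serve protein quality control at the endoplasmic reticulum (ER) were all 6 called in C57BL/6, with 5 rises and 1 fall, where 38% of all genes were called, and in AKR/N 1 rose and 1 fell, which is 33.3% against 23.4% of all genes. Median centring left 3 of the 6 C57BL/6 calls, those of Ube2g1, Ube2r2 and Ube2j2. Ube2g1, whose product extends chains for cullin ligases in human cells, was the rise shared by both strains. It had 299.8 and 359 in heated AKR/N testes, against 198 and 169.5 in AKR/N controls. It had 310.2 and 316 in heated C57BL/6 testes, against 179 and 172 in C57BL/6 controls. The change of 0.79 (SE 0.15, adjusted p = 0.00297) in AKR/N and 0.78 (SE 0.15, adjusted p = 0.00112) in C57BL/6 held with each array left out. At 12 h Ube2g1 had changed by 0.54 (SE 0.15, adjusted p = 0.0482) in AKR/N and 0.74 (SE 0.15, adjusted p = 0.00507) in C57BL/6. The AKR/N 12 h call was lost without any of 17 single arrays, with adjusted p up to 0.207. Its other probe set, which carries shared probes, changed by -0.33 in AKR/N and 0.14 in C57BL/6 at 24 h and was not called.

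Ube2r2, a relative of Cdc34 that serves the SCF cullin ligases, rose in C57BL/6 with a signal of 308 and 310.2 in C57BL/6 controls, 319.6 and 358 at 8 h, 415 and 411 at 10 h, 504 and 478 at 12 h and 592 and 520.5 at 24 h. In AKR/N it was 474 and 409 in AKR/N controls, 442 and 414 at 8 h, 451 and 372 at 10 h, 511 and 459 at 12 h and 485 and 480.3 at 24 h. In C57BL/6 all arrays from 10 h on were above those of controls and 8 h, and in AKR/N the arrays at 8, 10 and 12 h overlapped those of controls, with the 24 h arrays just above them. Its change at 24 h was 0.13 (SE 0.13, adjusted p = 0.508) in AKR/N and 0.81 (SE 0.13, adjusted p = 0.000255) in C57BL/6, and that at 12 h in C57BL/6 was 0.64 (SE 0.13, adjusted p = 0.00437). The C57BL/6 calls held with each array left out. The other Ube2r2 probe set changed by -0.40 in AKR/N and 0.07 in C57BL/6.

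Ube2g2, Ube2j1 and Ube2k had smaller rises in C57BL/6. Ube2g2, an E2 of ER-associated degradation, had 511 and 538 in heated AKR/N testes, against 541 and 542 in AKR/N controls. It had 594 and 626 in heated C57BL/6 testes, against 445 and 446 in C57BL/6 controls, and changed by -0.04 (SE 0.12, adjusted p = 0.828) in AKR/N and 0.44 (SE 0.12, adjusted p = 0.0116) in C57BL/6. Ube2j1, an ER membrane E2 whose loss leaves male mice sterile, had 3241 and 3684 in heated AKR/N testes, against 2856 and 3304 in AKR/N controls. It had 4256 and 4197 in heated C57BL/6 testes, against 3185 and 3061 in C57BL/6 controls, a change of 0.43 (SE 0.12, adjusted p = 0.013), against 0.17 in AKR/N. Ube2k, which builds degradation chains, had 2773 and 2717 in heated AKR/N testes, against 2121 and 2512 in AKR/N controls. It had 3766 and 4148 in heated C57BL/6 testes, against 2980.1 and 3065 in C57BL/6 controls, a change of 0.39 (SE 0.13, adjusted p = 0.0264), against 0.25 in AKR/N. None of the 3 C57BL/6 calls held throughout. Ube2g2 was lost without C57BL/6 24 h replicate 2 (adjusted p = 0.0713), control replicate 1 (0.0542) or control replicate 2 (0.0549). Ube2j1 was lost without either 24 h replicate (0.0667 and 0.0525) or control replicate 2 (0.0769), and Ube2k without either replicate of either group (0.0506 to 0.155). All 3 also lost the call under median centring, with adjusted p of 0.148 for Ube2g2, 0.176 for Ube2j1 and 0.27 for Ube2k.

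Ube2j2, the other ER membrane E2, fell in both strains. It had 705 and 574 in heated AKR/N testes, against 833 and 962 in AKR/N controls. It had 507 and 578 in heated C57BL/6 testes, against 799 and 987 in C57BL/6 controls. Its change was -0.48 (SE 0.14, adjusted p = 0.0274) in AKR/N and -0.70 (SE 0.14, adjusted p = 0.00179) in C57BL/6, and -0.50 (SE 0.14, adjusted p = 0.0278) at 12 h in C57BL/6. The C57BL/6 24 h call held with each array left out. The AKR/N call was lost without AKR/N 24 h replicate 2 (adjusted p = 0.242) or control replicate 2 (0.16), and the C57BL/6 12 h call without C57BL/6 12 h replicate 2 (0.16) or control replicate 2 (0.223). Median centring also ended the AKR/N call (0.0916). The other Ube2j2 probe set changed by -0.17 in each strain at 24 h and was not called.

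Of the RAD6 homologues, which ubiquitylate histones and the DNA clamp PCNA, Ube2a rose and Ube2b was not called. Ube2a lies on the X chromosome. It had 744 and 770.0 in heated AKR/N testes, against 512 and 575 in AKR/N controls. It had 974 and 999.9 in heated C57BL/6 testes, against 773 and 679.7 in C57BL/6 controls. The groups did not overlap in either strain, and the change was 0.47 (SE 0.11, adjusted p = 0.0111) in AKR/N and 0.44 (SE 0.11, adjusted p = 0.00858) in C57BL/6. The calls were lost without AKR/N 24 h replicate 2 (adjusted p = 0.0849) or AKR/N control replicate 1 (0.0846), and without C57BL/6 24 h replicate 2 (0.0511) or C57BL/6 control replicate 2 (0.091). Median centring also ended the C57BL/6 call (0.126) and kept that in AKR/N (0.0405). Ube2b, on chromosome 11, had 2227 and 2404 in heated AKR/N testes, against 2016 and 2110.3 in AKR/N controls. It had 2481 and 2397 in heated C57BL/6 testes, against 2171 and 2105 in C57BL/6 controls. Its change was 0.16 (SE 0.11, adjusted p = 0.292) in AKR/N and 0.19 (SE 0.11, adjusted p = 0.192) in C57BL/6.

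Ube2n and its catalytically inactive partners Ube2v1 and Ube2v2 build the chains of DNA damage tolerance and immune signalling. Ube2n had 844 and 824 in heated AKR/N testes, against 789.7 and 1014 in AKR/N controls. It had 834 and 939 in heated C57BL/6 testes, against 1198 and 1106 in C57BL/6 controls. The change was -0.10 (SE 0.14, adjusted p = 0.644) in AKR/N and -0.37 (SE 0.14, adjusted p = 0.0477) in C57BL/6. The C57BL/6 call was lost without any of 15 single arrays, with adjusted p up to 0.25 without C57BL/6 24 h replicate 1. It also opposed the other Ube2n probe set, which had 65.9 and 79 in heated AKR/N testes, against 44.1 and 41.4 in AKR/N controls. That probe set had 86.7 and 63.1 in heated C57BL/6 testes, against 34.4 and 37.3 in C57BL/6 controls, and rose by 0.59 (SE 0.17, adjusted p = 0.0303) in AKR/N and 0.80 (SE 0.17, adjusted p = 0.00298) in C57BL/6. The C57BL/6 rise held with each array left out, and the AKR/N rise was lost without AKR/N 24 h replicate 1 (adjusted p = 0.05002), 24 h replicate 2 (0.214), control replicate 1 (0.0903) or control replicate 2 (0.12). Ube2v1 changed by -0.16 in AKR/N and 0.12 in C57BL/6, and Ube2v2 by 0.27 in AKR/N and 0.00 in C57BL/6, with no call.

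Among the large and less usual members, Ube2o, a large enzyme that acts as E2 and E3 at once, fell in both strains. It had 51 and 64.4 in heated AKR/N testes, against 155 and 148 in AKR/N controls. It had 75 and 87.4 in heated C57BL/6 testes, against 106 and 146 in C57BL/6 controls. The AKR/N change of -1.19 (SE 0.19, adjusted p = 0.001) held with each array left out. The C57BL/6 change of -0.54 (SE 0.19, adjusted p = 0.0349) was lost without C57BL/6 24 h replicate 1 (adjusted p = 0.185), 24 h replicate 2 (0.06) or control replicate 2 (0.289), and without that control it was -0.33.

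Ube2u had 1708 and 1710.3 in heated AKR/N testes, against 2242 and 2133 in AKR/N controls, a change of -0.35 (SE 0.13, adjusted p = 0.0675) that was not called. It had 847 and 935 in heated C57BL/6 testes, against 1421 and 1415 in C57BL/6 controls, a fall of -0.66 (SE 0.13, adjusted p = 0.00138) that held with each array left out. Its C57BL/6 fall at 12 h, -0.45 (SE 0.13, adjusted p = 0.0294), was lost without either replicate of either group (adjusted p = 0.0659 to 0.119). Ube2q1, an E2 with a long N-terminal extension, had 271 and 276 in heated AKR/N testes, against 279 and 309 in AKR/N controls. It had 225 and 245 in heated C57BL/6 testes, against 341 and 358 in C57BL/6 controls, and changed by -0.10 in AKR/N and -0.54 (SE 0.12, adjusted p = 0.00246) in C57BL/6, where the call held with each array left out. The other Ube2q1 probe set changed by -0.22 in AKR/N and 0.02 in C57BL/6.

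Ube2z, an E2 charged by the E1 enzyme UBA6, had a signal of 175 and 205 in AKR/N controls, 182 and 204 at 8 h, 246 and 203 at 10 h, 312 and 336 at 12 h and 210.4 and 211 at 24 h. For C57BL/6 the signal was 175 and 205 in C57BL/6 controls, 179 and 149.7 at 8 h, 233 and 271 at 10 h, 269.8 and 221 at 12 h and 285 and 260.4 at 24 h. The AKR/N arrays were highest at 12 h, where the change was 0.72 (SE 0.15, adjusted p = 0.0137), against 0.14 at 24 h, which was not called. In C57BL/6 it was 0.49 (SE 0.15, adjusted p = 0.0191) at 24 h. The AKR/N 12 h call was lost without AKR/N 12 h replicate 1 (adjusted p = 0.0705), 12 h replicate 2 (0.057) or control replicate 1 (0.0966), and the C57BL/6 call without C57BL/6 24 h replicate 1 (0.117) or control replicate 1 (0.143). The other 2 Ube2z probe sets changed the opposite way, by -0.40 and -0.24 in AKR/N at 12 h and by -0.28 and -0.11 in C57BL/6 at 24 h.

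The other members were not called at 24 h. Ube2f, the E2 that passes NEDD8 to a cullin, changed by -0.22 in AKR/N and 0.09 in C57BL/6 on its kept probe set, and 1 of its 5 other probe sets rose in C57BL/6 by 1.31 (adjusted p = 0.00759). That rise was lost without C57BL/6 24 h replicate 1 (0.0547) or control replicate 1 (0.0539). Ube2q2 changed by -0.19 in AKR/N and 0.19 in C57BL/6, Ube2cbp by 0.23 and 0.09 in the same order, and Ube2d-ps by -0.07 and -0.16.

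**Figure D4:**
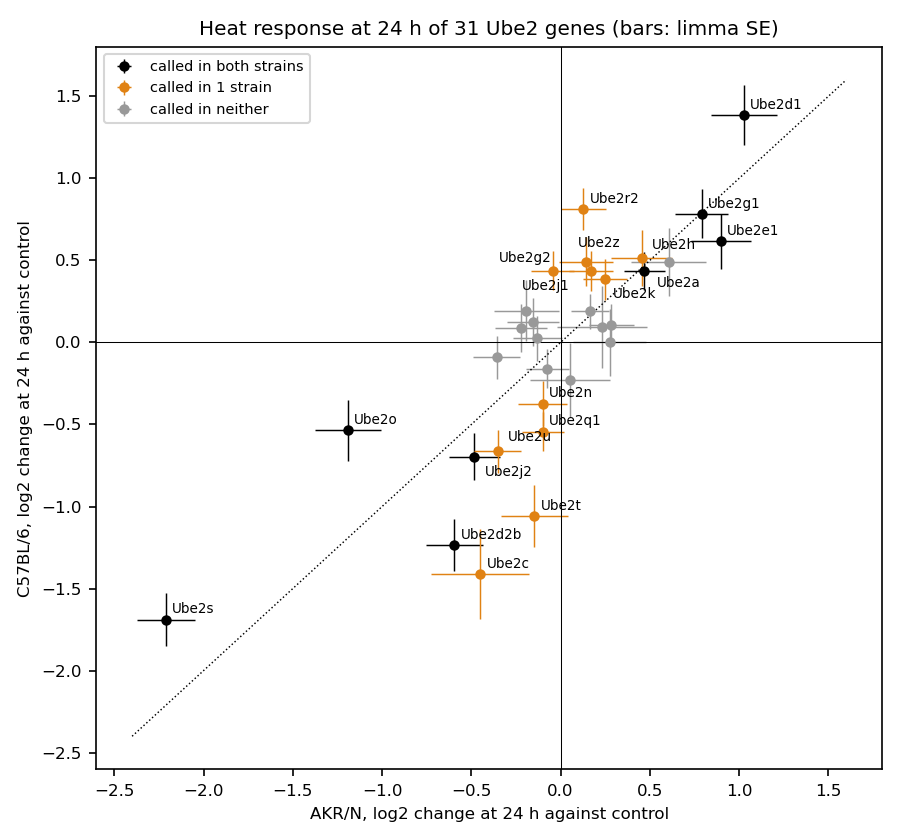
Log2 change at 24 h against control in AKR/N (x) and C57BL/6 (y) for the 31 tested Ube2 genes; bars are limma standard errors, the dotted line marks equal change, and colour tells in how many strains a gene was called. The lowest point is Ube2s, at -2.21 in AKR/N and -1.69 in C57BL/6, and the highest is Ube2d1, at 1.03 and 1.39.

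Whether the heat response differed between the strains was asked of each member by the interaction of strain and heat. At 24 h no member passed, where 1.76% of all genes did. An unadjusted p under 0.05 was reached by 8 members. No share of all genes at that threshold stands beside this count, so no family difference is read from it. The smallest adjusted p were those of Ube2r2, with a difference of AKR/N minus C57BL/6 changes of -0.69 (SE 0.18, adjusted p = 0.068), and Ube2t, with 0.91 (SE 0.26, adjusted p = 0.0865). The next were Ube2d2b, with 0.64 (SE 0.22, adjusted p = 0.139), and Ube2g2, with -0.48 (SE 0.17, adjusted p = 0.145). Ube2c, called in C57BL/6 alone, had a difference of 0.96 (SE 0.39, adjusted p = 0.197). The moderated F test over all times called no member either, against 0.0825% of all genes, with the smallest adjusted p 0.215 for Ube2r2. Ube2r2, Ube2o, Ube2z, Ube2g2 and Ube2u had an unadjusted p under 0.05 in that test, again without the share of all genes beside them. Under 2 other settings 2 members passed at 24 h, 1 with a positive and 1 with a negative difference: with a pseudocount of 64, where 4.68% of all genes passed, and with an intensity trend in the variance, where 5.21% did. At the settings used here, members called in 1 strain alone were not shown to differ between strains.

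The strains themselves differed in some E2 genes. In unheated testes 3 members were higher in AKR/N and none was lower, which is 9.68% against 6.29% of all genes (3.1% higher and 3.19% lower). Ube2u had 2242 and 2133 in AKR/N controls, against 1421 and 1415 in C57BL/6 controls, a difference of 0.62 (SE 0.13, adjusted p = 0.0118). Ube2d-ps had 91.9 and 90.5 in AKR/N, against 59 and 51.8 in C57BL/6, a difference of 0.59 (SE 0.12, adjusted p = 0.00983). Ube2r2 had 474 and 409 in AKR/N, against 308 and 310.2 in C57BL/6, a difference of 0.49 (SE 0.13, adjusted p = 0.0359). Median centring ended the calls of Ube2u (adjusted p = 0.0824) and Ube2r2 (0.133). The groups of controls did not overlap for these 3 members, which with 2 arrays a group adds no support. The other probe sets differed by 0.23 for Ube2d-ps and -0.10 for Ube2r2. None of the 3 calls held with each array left out: without AKR/N control replicate 1 the adjusted p was 0.0955 for Ube2u, 0.0695 for Ube2d-ps and 0.268 for Ube2r2. Without C57BL/6 control replicate 1 it was 0.0733 for Ube2u and 0.156 for Ube2r2, and without C57BL/6 control replicate 2 it was 0.0811, 0.104 and 0.157 for Ube2u, Ube2d-ps and Ube2r2. Ube2r2 was also lost without AKR/N 8 h replicate 1 (0.0514) or replicate 2 (0.0516).

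Over the mean of all 5 conditions, with 10 arrays per strain, 4 members were higher and 3 lower in AKR/N, which is 22.6% against 27.8% of all genes (14.9% higher and 12.9% lower). Ube2d-ps was higher by 0.66 (SE 0.05, adjusted p = 5.89e-07), with signals of 72.7 to 94.7 in AKR/N, against 40.5 to 59 in C57BL/6. Ube2u was higher by 0.59 (SE 0.06, adjusted p = 4.19e-06), Ube2c by 0.56 (SE 0.12, adjusted p = 0.00378) and Ube2j2 by 0.26 (SE 0.06, adjusted p = 0.00683). The members lower in AKR/N were Ube2a, at -0.42 (SE 0.05, adjusted p = 3.54e-05), Ube2k, at -0.36 (SE 0.06, adjusted p = 0.000259), and Ube2s, at -0.34 (SE 0.07, adjusted p = 0.00272). The arrays of the strains did not overlap for Ube2d-ps and Ube2k and overlapped for the other 5. No share of all genes stands beside this, and calls favour separated groups, so it adds no support to the calls. All 7 calls held with each array left out. Ube2c differed by 0.03 in controls, where it was not called. The other Ube2j2 probe set was lower in AKR/N, by 0.70 on the log2 scale, where the kept one was higher. The other Ube2d-ps probe set differed by 0.22, against 0.66 for the kept one. The other 3 Ube2k probe sets differed by 0.07, 0.05 and -0.10, and the other sets of Ube2a and Ube2s by -0.11 and -0.15. In differences between strains, RNA level and the match of probes to a strain's sequence cannot be told apart.

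**Figure D5:**
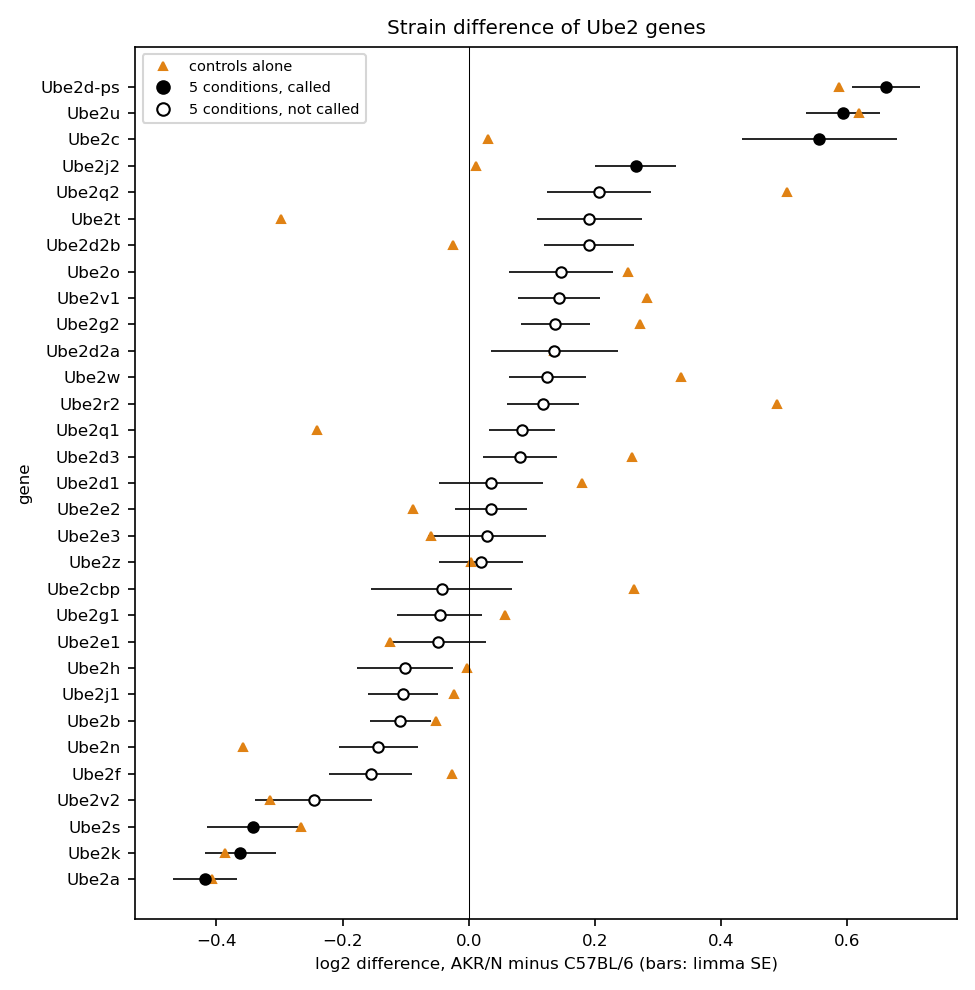
Log2 difference of AKR/N minus C57BL/6 for the 31 tested Ube2 genes, over the mean of 5 conditions (circles, filled where the adjusted p is under 0.05, bars limma standard errors) and in controls alone (triangles). Ube2d-ps (0.66) and Ube2u (0.59) stand highest and Ube2a (-0.42) lowest, and the triangle of Ube2c lies at 0.03 while its circle is at 0.56.

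Of the E1 enzymes, 6 of 9 listed were tested, and 2 rose and 1 fell in each strain at 24 h, which is 50% against 23.4% of all genes in AKR/N and 38% in C57BL/6. Uba3, of the NEDD8 E1, changed by 0.72 (adjusted p = 0.00234) in AKR/N and 0.91 (adjusted p = 0.000142) in C57BL/6. Uba6, the E1 that charges Ube2z, changed by 0.73 (adjusted p = 0.0169) in AKR/N and 0.98 (adjusted p = 0.00153) in C57BL/6. Sae1, of the SUMO E1, changed by -0.52 (adjusted p = 0.0192) in AKR/N and -0.78 (adjusted p = 0.000812) in C57BL/6. Without probe sets whose names end in _a_at, _s_at or _x_at the AKR/N value of Sae1 turned to 0.086. The AKR/N calls of Uba6 and Sae1 were lost without AKR/N 24 h replicate 2 (adjusted p = 0.165 and 0.166) and without AKR/N control replicate 1 (0.07 and 0.107), and Uba6 also without control replicate 2 (0.0692).

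Of 37 E3 ligases tested, 5 rose and 8 fell in AKR/N (35.1% against 23.4% of all genes), and 10 rose and 11 fell in C57BL/6 (56.8% against 38%). Nedd4 and Huwe1, large HECT ligases, rose: Nedd4 by 0.91 (adjusted p = 0.000542) in AKR/N and 1.21 (adjusted p = 1.49e-05) in C57BL/6, and Huwe1 by 0.77 (adjusted p = 0.00137) in AKR/N and 0.93 (adjusted p = 9.25e-05) in C57BL/6. Anapc11, the subunit of the anaphase-promoting complex that receives the E2, changed by -0.91 (adjusted p = 0.00101) in AKR/N and -1.29 (adjusted p = 2.01e-05) in C57BL/6. Without probe sets whose names end in _a_at, _s_at or _x_at the C57BL/6 value of Anapc11 turned to 0.37. Trim25 rose by 0.95 (adjusted p = 0.00204) in AKR/N, and Rnf7, a RING subunit of cullin ligases, changed by -1.08 (adjusted p = 5.81e-05) in C57BL/6.

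Of 22 deubiquitinases tested, which remove ubiquitin, 4 rose and none fell in AKR/N (18.2% against 23.4% of all genes), and 9 rose and 4 fell in C57BL/6 (59.1% against 38%). Usp22 rose by 0.79 (adjusted p = 0.00106) in AKR/N and 0.97 (adjusted p = 5.91e-05) in C57BL/6, and Usp44 by 0.49 (adjusted p = 0.0151) in AKR/N and 0.75 (adjusted p = 0.000498) in C57BL/6. Usp14 and Usp9x rose in AKR/N, by 0.77 (adjusted p = 0.00878) and 0.63 (adjusted p = 0.0135), and Cyld and Usp25 in C57BL/6, by 0.97 (adjusted p = 0.000177) and 1.25 (adjusted p = 0.000363). The AKR/N calls of Usp14, Usp9x and Usp44 were lost without AKR/N 24 h replicate 2 (adjusted p = 0.0665, 0.0947 and 0.0754). They were lost too without AKR/N control replicate 2 for Usp14 (0.0621) and Usp9x (0.12), and for Usp44 without AKR/N 24 h replicate 1 (0.0681) or control replicate 1 (0.102).

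Of 8 E2-like genes of other names, none rose and 1 fell in AKR/N, and 2 rose and none fell in C57BL/6, which is 12.5% against 23.4% of all genes in AKR/N and 25% against 38% in C57BL/6. Cdc34, the SCF partner, changed by -0.60 (adjusted p = 0.0197) in AKR/N. Atg10, the E2-like enzyme of autophagy, and Aktip, which has an inactive E2 fold, changed by 0.87 (adjusted p = 0.00396) and 0.46 (adjusted p = 0.0386) in C57BL/6. Of 6 tested genes for ubiquitin and ubiquitin-like proteins, Fau alone was called in AKR/N, at -0.42 (adjusted p = 0.0138), and Sumo3 and Urm1 in C57BL/6, at 0.62 (adjusted p = 0.00263) and -0.64 (adjusted p = 0.0155). Those were 1 of 6 in AKR/N (16.7%) and 2 of 6 in C57BL/6 (33.3%). Without probe sets whose names end in _a_at, _s_at or _x_at, the C57BL/6 values turned to -0.23 for Aktip and 0.11 for Urm1. Leaving out 1 array ended the calls of Cdc34 (adjusted p = 0.152 without AKR/N 24 h replicate 2 and 0.153 without control replicate 1), Fau (0.126 without AKR/N 24 h replicate 2 and 0.0772 without control replicate 2), Atg10 (0.0615 without C57BL/6 24 h replicate 1) and Urm1 (0.108 without C57BL/6 24 h replicate 1 and 0.0871 without control replicate 1). Aktip was lost without either replicate of either C57BL/6 group (0.0656 to 0.196).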

How the data were processed

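RNA of 20 testis samples was measured on Affymetrix arrays, 2 for each of 10 groups of strain and time, and samples were grouped by the labels' titles. Each deposited value is the intensity of a probe set, already summarised and scaled by the authors with software that the labels do not name. Trimmed by 2% at either end, all arrays had a mean of 125.001. Of 45101 probe sets, 34945 name 1 gene in the array annotation and were used, 932 name several, 9160 name none and 64 are controls.

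Signals were taken as log2(signal + 16). Each gene kept its probe set with the highest mean, and genes were tested where the highest group mean reached the 40th percentile of all probe sets, 5.07 in log2 or 17.5 in signal. All 20 arrays were fitted together, each group having its own mean, with limma 3.58.1 in R 4.3.3 (plots and sequences used matplotlib 3.10.9 and pandas 2.3.3 in Python 3.11.15), followed by empirical Bayes moderation (prior degrees of freedom 3.54, residual 10). Benjamini-Hochberg adjustment ran over 15762 genes, every adjusted p given is such a limma value, and SE is limma's standard error. The number of arrays limits the precision. The code was tested on simulated data.

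Each time was compared with controls of its strain, the strains in controls and over all conditions, and the heat responses between strains. The Ube2 genes, role groups, pathway lists and markers were chosen with earlier results of these data known, so they are no independent evidence. Members called in any comparison were described with each array's value, up to 6 per direction and comparison by size, as were Ube2a, Ube2b, Ube2c, Ube2n and Ube2d3 whatever they did, and up to 4 called genes per pathway list by smallest adjusted p at 24 h. Alternatives were the pseudocount, the filter, the scaling, the choice of probe set, the variance trend, 1 strain alone, a replicate block and leaving out each array. Replicate numbers did not pair samples across groups. Promoter windows came from RefSeq, and coordinates are those of GRCm38.p6.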

Additional observations from a re-analysis of the deposited data

How the results depend on the processing

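Counts of called Ube2 genes at 24 h kept within 1.5 times of the 8 in AKR/N under each other setting tried with all arrays, and of the 19 in C57BL/6 under each of these except median centring, which gave 12. Smaller counts moved more. At 10 h the 2 C57BL/6 calls became 5 with a pseudocount of 64, 4 with the mean of all probe sets, 6 with an intensity trend, and 1 with median centring or 1 strain alone. The 1 AKR/N call at 10 h became 2 with a pseudocount of 64 or an intensity trend. At 12 h the 5 AKR/N calls became 3 with a pseudocount of 1, no filter or median centring, 2 with 1 strain alone and 8 with an intensity trend. The 3 calls between strains in controls became 5 with a pseudocount of 64 or an intensity trend and 1 with median centring, and the 7 over all conditions became 13 with an intensity trend. The strain by heat test at 24 h went to 2 calls from 0 with a pseudocount of 64 or an intensity trend. With 1 array left out in turn, calls at 24 h ranged from 5 to 9 in AKR/N and from 11 to 20 in C57BL/6. At 12 h they ranged from 1 to 6 and from 4 to 9, at 10 h they stayed at 1 in AKR/N and ranged from 1 to 4 in C57BL/6, and at 8 h they stayed at 0 in both. Those between strains ranged from 0 to 3 in controls and from 7 to 9 over all conditions, and both tests of strain by heat stayed at 0.

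Directions turned only where the probe set changed. With the mean of all probe sets, Ube2n in C57BL/6 at 24 h was 0.21 and the strain difference of Ube2j2 over all conditions was -0.22. Another setting left out probe sets whose names end in _a_at, _s_at or _x_at. The kept sets of Ube2j2 and Ube2r2 end in _a_at, that of Ube2s in _s_at and that of Ube2h in _x_at. Ube2j2 was then 0.080 in C57BL/6 at 12 h and -0.70 between strains. Ube2s was 0.071 in C57BL/6 and 0.32 in AKR/N at 12 h and 0.097 in AKR/N at 24 h. Ube2h was -0.041 in C57BL/6 at 24 h, and Ube2r2 was -0.098 between strains in controls. Among other pathway genes at 24 h under that setting, Sae1 was 0.086 in AKR/N, and Aktip was -0.23, Urm1 0.11 and Anapc11 0.37 in C57BL/6. The alternative probe sets are different probes for the same gene, and the cause was not tested. Signals near the filter of 17.5, such as those of Ube2cbp, cannot show small changes.

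The replicate numbers did not pair the samples: deviations from group means correlated with r between -0.28 and 0.30 over 45 pairings of groups (median -0.01, 4 over 0.1). With the replicate block, 3 Ube2 genes were called at 12 h in AKR/N in place of 5, and no other count of calls moved by over 1.5 times.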
